A study of Arabidopsis thaliana with 4 samples.

Results

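The genes described here encode the core of nuclear auxin signalling in Arabidopsis thaliana, and they were chosen by locus identifier: 25 Aux/IAA repressors, 15 ARF transcription factors and 6 TIR1/AFB receptors, which make 46 of the 32833 genes in the table. Auxin fits between a TIR1/AFB receptor, the substrate-binding part of an SCF ubiquitin ligase, and domain II of an Aux/IAA protein, which is then degraded. Without auxin the Aux/IAA protein sits on an ARF and brings in a TOPLESS corepressor, so that the genes bound by the ARF stay low. Many Aux/IAA genes are themselves ARF targets, which gives the pathway negative feedback, and in explants on auxin-rich medium ARF7 and ARF19 are known for starting callus through LBD genes.

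RNA was sequenced from callus that grew out of hypocotyl explants of wild type Col-0 and of the wox5-1 wox7-1 double mutant, which carries mutant alleles of the homeobox genes WOX5 and WOX7. Both genotypes had been raised for 9 days in darkness and then held in continuous light at 22 °C on callus induction medium with 11 µM 2,4-D, a synthetic auxin, and 0.2 µM kinetin, a cytokinin. The culture lasted 5 to 6 days and the stage is labelled as day 6. Each genotype had 2 libraries made from pools of about 100 calli. The labels name 1 double mutant line. Whether replicate libraries were grown independently is not stated, and p-values therefore reflect library-to-library spread that may be technical; errors given after ± are standard errors of the fit unless named otherwise.

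Reads assigned to genes numbered 30041268 and 35975440 in the wild type libraries against 35078420 and 40008661 in the mutant libraries. WOX5 had 4378 and 5268 reads in the wild type against 9 and 33 in the mutant. WOX7 had 449 and 473 reads in the wild type against 790 and 864 in the mutant. Gene-level counts do not tell where in WOX7 the reads fell. All 8 callus and root-niche markers checked had reads in every library, and their summed level was 1038 and 959 CPM (read counts scaled to library size and by TMM) in the wild type and 780 and 706 CPM in the mutant. Without WOX5 itself the other 7 summed to 894 and 814 against 779 and 706 CPM; LBD17 and LBD18 were called higher, and SCR and PLT2 lower. The 5 shoot markers summed to between 0.872 and 3.88 CPM per library. Summed markers of other cell types differed between the genotypes, though not every gene in a list did. The 3 root cap markers summed to 7.99 and 10.7 CPM in the wild type and 86.4 and 101 CPM in the mutant, the 6 endodermis markers (CASP1 at 0 throughout) to 7.23 and 6.67 against 38.5 and 44.0 CPM, and the 7 xylem markers to 12.0 and 10.5 against 24.7 and 16.6 CPM. The 3 phloem markers went the other way, from 21.6 and 19.8 to 14.9 and 14.7 CPM. The genes called were SMB (root cap), MYB36, GPAT5 and CYP86A1 (endodermis) and XCP1 (xylem), all higher, and CALS7 (phloem), lower. In the mutant SMB alone had 85.8 and 89.4 CPM of the root cap sum. The root cap marker BRN1 overlapped between the genotypes (adjusted p = 0.745 in edgeR), and BRN2 was not tested. CESA4, CESA7 and SUC2 had log2 fold changes of 0.21, 0.07 and -0.03, so the sums do not stand for every gene in a list. The part that such a change of cell types has in the results below was not tested, and in bulk RNA fewer cells of a type and less RNA per cell cannot be told apart.

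Genes of all 3 families differed between the genotypes, in both directions among the Aux/IAA and ARF genes. Of the 45 members with enough reads to test, 14 passed an adjusted p of 0.05 (edgeR's quasi-likelihood test, Benjamini-Hochberg over all tested genes), which is 31.1% beside 11.9% of all 18716 tested genes. Of these, 8 were higher (6.06% of all tested genes) and 6 were lower (5.81%). Without IAA31, which passed the read filter through the mutant libraries alone, 13 of 44 passed (29.5%) and 7 were higher. Among the Aux/IAA genes IAA1, IAA17, IAA19, IAA29 and IAA31 rose and IAA14, IAA20 and IAA30 fell. Among the ARF genes ARF10, ARF16 and ARF19 rose and ARF1 and ARF9 fell, and among the receptors AFB1 fell. The median log2 fold change, mutant over wild type, was 0.43 for the 24 tested Aux/IAA genes (0.37 without IAA31), -0.14 for the 15 ARF genes and -0.15 for the 6 receptors, beside 0.00 for all tested genes. Members of a family are not replicates, so these medians describe the families and carry no test. The members were chosen with earlier results of these data known, and the shares called were not tested either.

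**Figure D1:**
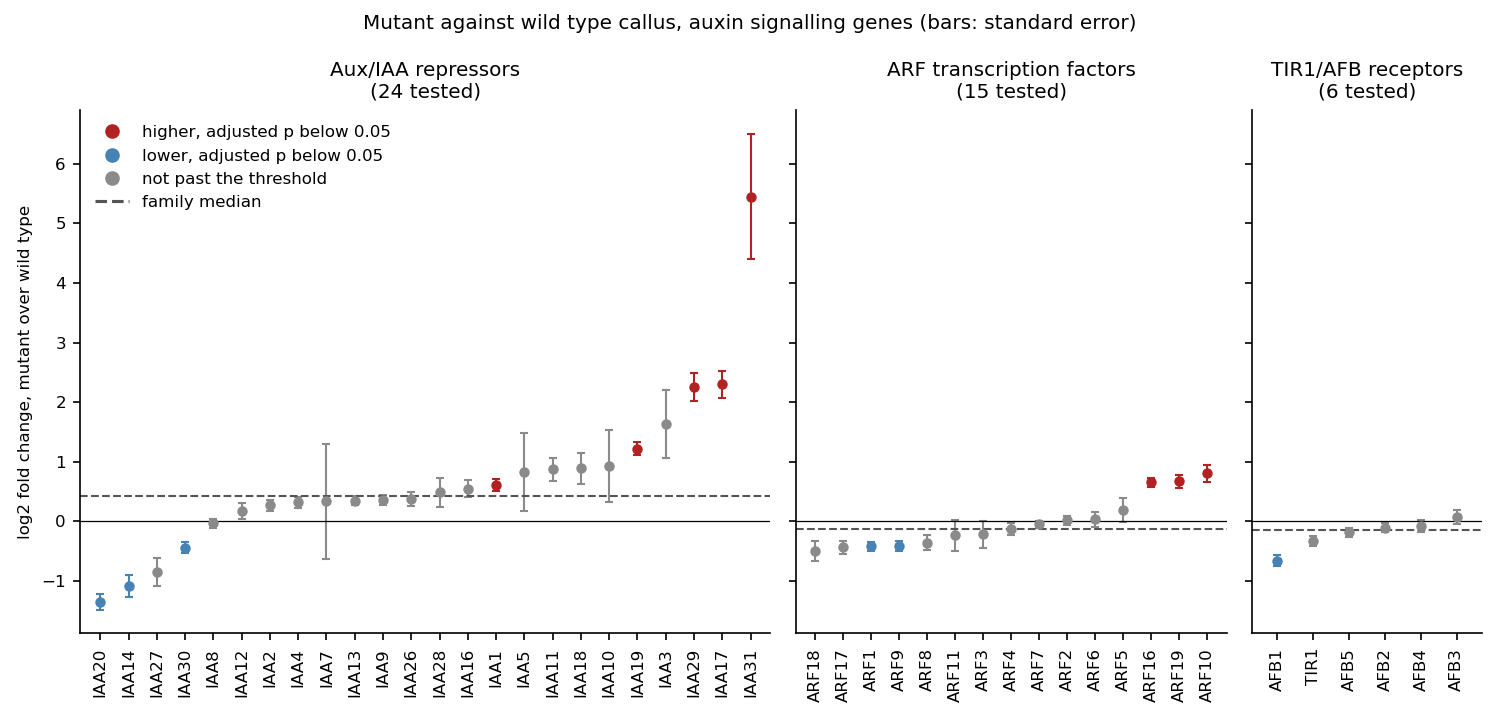
Log2 fold change of the mutant over the wild type (vertical axis) for the 45 tested members, sorted within each family, with the standard error of the fit as bars and the family median as a dashed line. Of the 24 Aux/IAA genes 19 lie above 0 (18 of 23 without IAA31), while 9 of the 15 ARF genes and 5 of the 6 receptors lie below it.

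The calls depend on how few libraries there are. Without wild type replicate 1, or without wild type replicate 2, 0 members and 0 genes of the whole table passed in edgeR, although 18 members had an unadjusted p under 0.05 in either case, as did 3428 and 3346 genes of the table. With mutant replicate 1 or mutant replicate 2 left out, some of the 14 lost the call and other members gained it. Over all 4 fits with a library left out, the log2 fold change ran from 2.05 to 2.52 for IAA17 and from -0.52 to -0.36 for IAA30. With all 4 libraries DESeq2 called 24 members, including all 14, beside 20.2% of the 19392 genes with an adjusted p. The 10 it added were IAA3, IAA4, IAA9, IAA11, IAA13, IAA16, IAA18, IAA26, IAA27 and TIR1. On the same 4 libraries limma-voom called 9 members, all among the 14, beside 1698 of the 18716 genes it tested. It did not call IAA14, IAA30, IAA31, ARF1 or ARF9. IAA1, IAA14, IAA30, IAA31, ARF9, ARF10 and ARF19 kept the call in none of the 4 fits that left out a library. The direction of each of the 14 was the same in every alternative that tested it.

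Summed over each family per kilobase of transcript, the scale on which levels of different genes can be set side by side, Aux/IAA mRNA stood at 1696 and 1711 CPM per kb in the wild type libraries and at 2259 and 2204 CPM per kb in the mutant libraries. The ARF sum was 411 and 379.9 CPM per kb in the wild type and 462 and 392 CPM per kb in the mutant, and wild type replicate 1 lay between the mutant libraries. The receptor sum was 162 and 157 CPM per kb in the wild type and 136 and 133 CPM per kb in the mutant. The Aux/IAA and receptor sums did not overlap between genotypes, in opposite directions, and the ARF sums did. The Aux/IAA sum was 4.12 and 4.50 times the ARF sum in the wild type and 4.89 and 5.62 times in the mutant. No test was made of these sums.

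**Figure D2:**
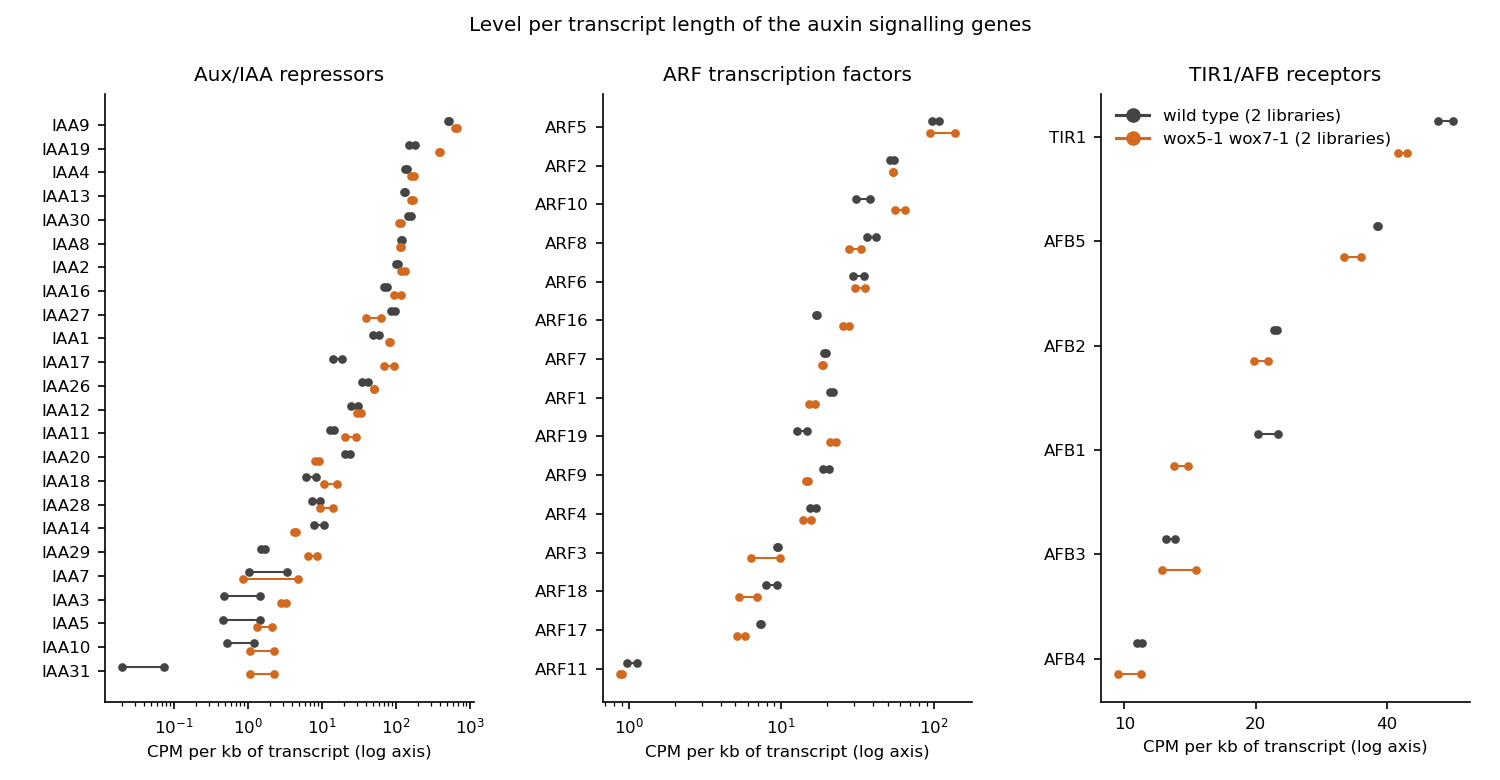
Level in CPM per kb of transcript (horizontal log axis) of each tested member, sorted by mean level within its family; both libraries of a genotype are points joined by a line, and the wild type library without an IAA31 read is drawn at the left end. IAA9, ARF5 and TIR1 lead their families in all 4 libraries, and IAA17, IAA29 and IAA31 show wide gaps between the genotypes.

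The receptors are F-box proteins that differ in how they are used. TIR1 (AT3G62980) and AFB2 carry out most of the transcriptional response in roots, AFB1 acts mainly in rapid growth responses, and AFB4 and AFB5 form a separate branch that also binds the synthetic auxin picloram. The order of mean levels was the same in both genotypes: TIR1, AFB5, AFB2, AFB1, AFB3 and AFB4. TIR1 made up 34.9% and 33.4% of the receptor sum per kb in the wild type against 32.7% and 31.7% in the mutant. AFB2 and AFB1 overlapped in the wild type, at 22.1 and 22.3 against 22.5 and 20.2 CPM per kb, and were apart in the mutant, at 19.9 and 21.3 against 14.0 and 13.0 CPM per kb. There AFB1 overlapped with AFB3, which had 14.6 and 12.2 CPM per kb.

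AFB1 (AT4G03190, chr4:1404887-1407402, minus strand, TAIR10.1) was the receptor that fell. It had 52.3 and 47.0 CPM in the wild type and 32.4 and 30.1 CPM in the mutant. Both mutant libraries lay below both wild type libraries, with a log2 fold change of -0.67 ± 0.10 (SE) and an adjusted p of 0.0293 in edgeR. Whether the libraries keep strand is not stated, and AFB1 shares 423 exon bases with AT4G03180 on the other strand, which did not pass the test (log2 fold change 0.17, adjusted p = 0.305 in edgeR). TIR1 had 150.1 and 139 CPM in the wild type and 117 and 112 CPM in the mutant, without overlap, and missed the threshold (log2 fold change -0.33 ± 0.08, adjusted p = 0.0642 in edgeR). AFB5 had 96.2 and 95.5 CPM against 80.5 and 88.1 CPM, again without overlap (log2 fold change -0.18 ± 0.08, adjusted p = 0.180 in edgeR). AFB2 had 60.4 and 61.1 CPM against 54.3 and 58.3 CPM, and its log2 fold change was -0.11. AFB3 and AFB4 overlapped between the genotypes, with log2 fold changes of 0.07 and -0.08. Both also share exon bases with genes on the other strand. These are AT1G12810 for AFB3 (548 to 751 reads per library) and AT4G24380 for AFB4 (74 to 144 reads). The levels and order of AFB1, AFB3 and AFB4 therefore carry the strand limit. In all, 4 of the 6 receptors had both mutant libraries below both wild type libraries, a pattern that 33% of all tested genes showed.

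The microRNA miR393 is known to cut TIR1, AFB2 and AFB3 mRNA, and AFB1 is known to resist it. The mature miR393a and miR393b are identical in the TAIR10.1 RefSeq annotation, and their site was found in 4 of the 6 receptors, all within the coding span, where a match with at most 4 unpaired positions was present in 0.0255% of 27444 coding transcripts. The sequences are shown, 5′ to 3′, because the receptor that fell carries the most mismatched site. Capitals mark the seed (bases 2 to 8) in the microRNA and the positions in each site that do not form a Watson-Crick pair with it.
ath-miR393a-5p: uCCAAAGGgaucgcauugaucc
AFB2 site, chr3:9870237-9870258, plus strand: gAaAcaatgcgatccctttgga
AFB3 site, chr1:4369085-4369106, minus strand: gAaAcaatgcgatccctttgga
TIR1 site, chr3:23273727-23273748, minus strand: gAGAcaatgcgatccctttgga
AFB1 site, chr4:1405341-1405362, minus strand: gAGAcCatgcgatccctttgga
With G:U pairs (1 in TIR1, 1 in AFB1) counted as unpaired, AFB2 and AFB3 have 2 unpaired positions, TIR1 has 3 and AFB1 has 4. The unpaired position 17 of the microRNA is found in AFB1 and in no other receptor site. A match of letters is a description and shows no cleavage. The MIR393A and MIR393B precursor genes had 0 reads in all 4 libraries, which allows up to 0.0770 to 0.0987 CPM of the precursor (3 reads, counting error only), and mature microRNA was not measured.

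Among the Aux/IAA repressors the highest level in every library was that of IAA9 (AT5G65670), whose tomato counterpart is known from leaf and fruit development, with 29.0% to 30.8% of the family sum per kb. It had 1018 and 987 CPM in the wild type and 1319.7 and 1245 CPM in the mutant. Both mutant libraries were higher, but the difference missed the threshold in edgeR (log2 fold change 0.36 ± 0.09, adjusted p = 0.0716) and passed in DESeq2 (adjusted p = 0.000256). IAA4 had 191 and 183 CPM against 243 and 221 CPM, also without overlap and also short of the threshold (log2 fold change 0.31 ± 0.08, adjusted p = 0.0825 in edgeR). The mean order at the top was IAA9, IAA19, IAA30 and IAA4 in the wild type and IAA9, IAA19, IAA4 and IAA13 in the mutant. IAA30 and IAA19 overlapped in the wild type, at 163 and 148 against 154 and 183 CPM per kb, as did IAA4 and IAA13 in the mutant, at 179 and 163 against 169 and 164 CPM per kb.

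IAA19 (AT3G15540, chr3:5264001-5265695, plus strand), known as MSG2 from tropic bending of the hypocotyl, rose from an already high level. It had 155 and 185 CPM in the wild type and 390.3 and 399 CPM in the mutant. The mutant libraries were 2.32 times the wild type on average and nearly equal to each other, with a log2 fold change of 1.22 ± 0.11 (SE) and an adjusted p of 0.0176 in edgeR. Its share of the Aux/IAA sum per kb was 9.05% and 10.7% in the wild type against 17.1% and 17.9% in the mutant.

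IAA17 (AT1G04250, chr1:1136078-1138663, plus strand), known as AXR3 from mutants with strong auxin responses in the root, had the largest fitted fold change among members with reads in all libraries. It had 19.0 and 25.1 CPM in the wild type and 90.8 and 126 CPM in the mutant. Both mutant libraries lay far above the wild type, 4.93 times on average, with a log2 fold change of 2.30 ± 0.23 (SE) and an adjusted p of 0.0184 in edgeR. Its rank among the 25 Aux/IAA genes per kb went from 14 in the wild type to 9 in the mutant.

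IAA29 (AT4G32280, chr4:15583332-15584903, plus strand), known from elongation growth under shade and warmth, rose as much from a low level. It had 2.17 and 1.88 CPM in the wild type and 8.29 and 10.9 CPM in the mutant. The groups were apart by 4.74 times on average, with a log2 fold change of 2.25 ± 0.23 (SE) and an adjusted p of 0.0196 in edgeR. IAA1 (AT4G14560, chr4:8360996-8362033, plus strand), a gene induced within minutes by auxin and known as AXR5, had 47.2 and 55.6 CPM against 76.9 and 79.0 CPM. Its mutant libraries were both higher, by 1.52 times on average, with a log2 fold change of 0.60 ± 0.10 (SE) and an adjusted p of 0.0382 in edgeR.

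IAA31 (AT3G17600, chr3:6019973-6021147, minus strand) was near the limit of detection. It had 2 and 0 reads in the wild type libraries against 71 and 38 reads in the mutant libraries. All but 2 of its reads thus came from the mutant, and the ratio of the scaled read totals was 48.8, with an exact (Clopper-Pearson) 95% interval of 13.2 to 408 that covers counting error only. The fitted log2 fold change of 5.45 (adjusted p = 0.0458 in edgeR) depends on how a count of 0 is treated, and IAA31 lost its call in limma-voom (adjusted p = 0.0548). In the mutant IAA31 still had 2.25 and 1.09 CPM per kb, rank 24 of the 25 Aux/IAA genes.

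IAA14 (AT4G14550, chr4:8347822-8350263, minus strand), known as SLR, whose stabilised form blocks lateral root initiation, fell. It had 18.5 and 13.7 CPM in the wild type and 7.90 and 7.21 CPM in the mutant. The wild type was 2.13 times the mutant on average and the groups did not overlap, with a log2 fold change of -1.09 ± 0.19 (SE) and an adjusted p of 0.0384 in edgeR. IAA20 (AT2G46990, chr2:19307714-19309071, plus strand) and IAA30 (AT3G62100, chr3:22995686-22996809, plus strand), a closely related pair known as targets of ARF5 in vascular tissue, fell as well. IAA20 had 20.7 and 23.6 CPM against 9.14 and 8.16 CPM, the wild type being 2.56 times the mutant (log2 fold change -1.36 ± 0.13, adjusted p = 0.0181 in edgeR). IAA30 had 146 and 133 CPM against 99.4 and 106 CPM, a smaller gap that was also free of overlap (log2 fold change -0.44 ± 0.08, adjusted p = 0.0455 in edgeR). IAA14 and IAA30 narrowly lost the call in limma-voom (adjusted p = 0.05002 and 0.05238), and IAA20 kept it.

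**Figure D3:**
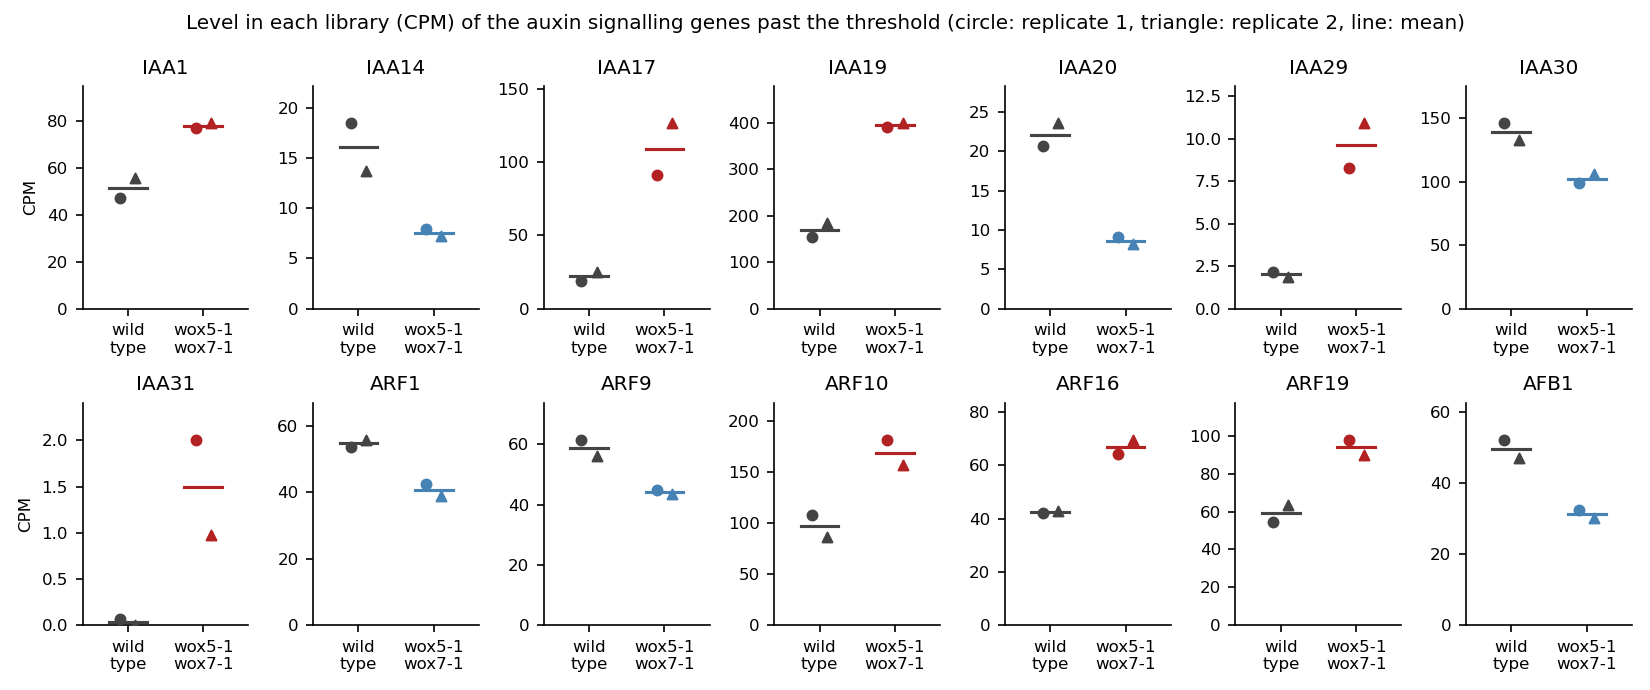
Level in CPM (vertical axis, starting at 0, a scale of its own in each panel) in each library of the 14 members past the threshold, with replicate 1 as a circle, replicate 2 as a triangle and the genotype mean as a line. In all 14 panels, which the test on these same libraries chose, the 2 mutant libraries lie on one side of the 2 wild type libraries. Of all 18716 tested genes, 12062 do so.

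The other 16 tested Aux/IAA genes did not pass. Their log2 fold changes ran from -0.85 for IAA27 to 1.64 for IAA3, and 14 of the 16 were above 0. Over the family, 15 of 24 had both mutant libraries above both wild type libraries, where 31.5% of all tested genes did. Another 4 had both below, where 33% of all tested genes did. Without IAA31, 14 of 23 had both above. IAA27 had 126 and 138 CPM in the wild type against 89.6 and 56.7 CPM in the mutant, without overlap, and did not pass in edgeR (adjusted p = 0.0837), while DESeq2 called it lower (adjusted p = 0.00187). IAA16, IAA13 and IAA11 had log2 fold changes of 0.55, 0.35 and 0.87, with both mutant libraries higher and adjusted p of 0.0702, 0.0555 and 0.0560 in edgeR. IAA6 had 1 read in all 4 libraries and was not tested.

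The canonical Aux/IAA degron in domain II holds the core Gly-Trp-Pro-Pro, and the codons for it were looked for in frame in every annotated coding sequence as GGNTGGCCNCCN. They were present in 22 of the 25 Aux/IAA members (88%), in 0 of 15 ARF genes, in 0 of 6 receptors and in 0.0401% of 27415 coding genes outside the Aux/IAA family. The 3 members without them were IAA20, IAA30 and IAA31, which are known to lack the canonical degron and to make longer-lived proteins. IAA20 and IAA30 passed as lower and IAA31, testable only through the mutant libraries in which it is high, as higher. Of the 21 tested members with the core 5 passed, 4 higher and 1 lower. Of all tested genes 11.9% passed, 6.06% higher and 5.81% lower. The coding stretch is shown for the 5 called members that have it and for IAA9, so that the spread of codons around an invariant core can be seen; capitals mark the core codons, 12 bases are shown on each side, and the text reads along the coding strand.
IAA1, core at chr4:8361445-8361456: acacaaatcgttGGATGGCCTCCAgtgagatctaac
IAA17, core at chr1:1136947-1136958: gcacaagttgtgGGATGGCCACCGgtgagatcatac
IAA19, core at chr3:5264316-5264327: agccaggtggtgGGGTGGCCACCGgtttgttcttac
IAA29, core at chr4:15583951-15583962: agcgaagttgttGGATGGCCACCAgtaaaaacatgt
IAA14, core at chr4:8349487-8349498: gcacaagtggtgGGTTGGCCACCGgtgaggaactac
IAA9, core at chr5:26255113-26255124: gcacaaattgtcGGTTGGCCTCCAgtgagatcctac
IAA14, which fell, and IAA1, IAA17, IAA19 and IAA29, which rose, all carry the core. Of the 21 tested members with it, 18 had a log2 fold change above 0 and 3 below. Of all 18716 tested genes 9322 were above 0 and 9394 below. No test was made of these counts.

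ARF proteins bind hexamers known as auxin response elements, here searched on both strands as TGTCTC and TGTCGG, which on opposite strands can share an end base, in the 250 bases before the annotated gene start. Either hexamer was present before 11 of 25 Aux/IAA genes (44%), 3 of 15 ARF genes (20%), 1 of 6 receptor genes (16.7%) and 14.7% of 27443 coding genes. Of the 10 tested Aux/IAA genes with a hexamer, 2 rose and 2 fell (40% called), and of the 14 without one, 3 (IAA31 among them) rose and 1 fell (28.6%). Of all tested genes 11.9% were called, and the 2 shares were not tested against each other. The windows of IAA19 and IAA1, which rose, and of IAA20, which fell, are printed 5′ to 3′ along the gene's strand and end at the base before the gene start; capitals mark the hexamers, GAGACA and CCGACA being TGTCTC and TGTCGG on the other strand.
IAA19, chr3:5263751-5264000: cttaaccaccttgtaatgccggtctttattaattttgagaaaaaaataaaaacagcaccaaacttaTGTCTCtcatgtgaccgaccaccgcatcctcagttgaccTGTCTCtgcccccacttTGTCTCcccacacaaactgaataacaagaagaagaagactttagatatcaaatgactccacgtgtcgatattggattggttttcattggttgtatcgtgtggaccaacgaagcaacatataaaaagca
IAA1, chr4:8360746-8360995: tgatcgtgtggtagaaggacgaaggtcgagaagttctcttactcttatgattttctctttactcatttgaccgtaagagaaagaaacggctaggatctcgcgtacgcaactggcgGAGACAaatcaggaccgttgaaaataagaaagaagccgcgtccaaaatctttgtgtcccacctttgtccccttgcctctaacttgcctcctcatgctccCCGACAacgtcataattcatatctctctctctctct
IAA20, chr2:19307464-19307713: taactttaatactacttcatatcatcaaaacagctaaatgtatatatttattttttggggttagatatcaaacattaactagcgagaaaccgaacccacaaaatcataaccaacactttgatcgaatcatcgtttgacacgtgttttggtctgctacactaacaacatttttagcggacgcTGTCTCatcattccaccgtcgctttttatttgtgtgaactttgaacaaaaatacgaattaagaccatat
IAA19 has TGTCTC 3 times in its window, IAA1 has each hexamer 1 time and IAA20 has TGTCTC 1 time. IAA30, which fell and whose window is not printed, also has TGTCTC 1 time. IAA17, IAA29, IAA31 and IAA14 have neither in theirs, which says only that these letters are not in that window.

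Among the members are 3 pairs of neighbouring Aux/IAA genes that point away from each other with no coding gene between them. IAA14 and IAA1 are 10732 bases apart on chromosome 4, and the first fell while the second rose. IAA3 and IAA17 are 6388 bases apart on chromosome 1. IAA17 rose, and IAA3 had 20 and 73 reads in the wild type against 137 and 176 in the mutant, with no overlap but a wide spread within the wild type (log2 fold change 1.64 ± 0.57, adjusted p = 0.130 in edgeR). IAA3 shares 536 exon bases with AT1G04230, which had 622 to 754 reads per library and a log2 fold change of 0.01, and without strand the reads of such a pair cannot be told apart. IAA2 and IAA7 are 12510 bases apart on chromosome 3 and neither passed, with log2 fold changes of 0.27 and 0.33.

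The ARF transcription factors fall into class A activators (ARF5, ARF6, ARF7, ARF8 and ARF19), class B proteins that mostly repress, and class C proteins targeted by miR160 (ARF10, ARF16 and ARF17). The highest level per kb in every library was that of ARF5 (AT1G19850), known as MONOPTEROS from embryo and vascular patterning, with 24.2% to 29.95% of the family sum. It had 389 and 351 CPM in the wild type and 500.5 and 344 CPM in the mutant, and the mutant libraries enclosed the wild type values (log2 fold change 0.19 ± 0.20, adjusted p = 0.557 in edgeR). Next in the wild type came ARF2, known as a repressor in seed growth and ageing, with 212 and 199 CPM against 206 and 208 CPM and a log2 fold change of 0.01. In the mutant ARF10 came second on average, at 64.8 and 55.8 CPM per kb, but ARF2, at 53.7 and 54.3 CPM per kb, was close to the lower of those.

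In class A, ARF19 (AT1G19220, chr1:6627683-6633133, minus strand), which acts with ARF7 in lateral root and callus formation, rose. It had 54.7 and 63.7 CPM in the wild type and 98.2 and 90.1 CPM in the mutant. Both mutant libraries were higher, by 1.59 times on average, with a log2 fold change of 0.67 ± 0.11 (SE) and an adjusted p of 0.0336 in edgeR. Its close relative ARF7 had 86.5 and 84.2 CPM against 82.8 and 81.4 CPM, a log2 fold change of -0.06 ± 0.07 (SE) and an adjusted p of 0.601 in edgeR. The difference between ARF19 and ARF7 in response was not tested. ARF6 and ARF8, which act together in flower maturation and adventitious rooting and are targets of miR167, had log2 fold changes of 0.03 and -0.36 with edgeR adjusted p of 0.902 and 0.128.

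In class B, ARF1 (AT1G59750, chr1:21979289-21984433, plus strand) and ARF9 (AT4G23980, chr4:12451143-12455369, plus strand) fell by small amounts. ARF1 had 53.6 and 55.9 CPM in the wild type and 42.5 and 39.1 CPM in the mutant, without overlap (log2 fold change -0.43 ± 0.08, adjusted p = 0.0460 in edgeR). ARF9 had 61.6 and 56.0 CPM against 44.8 and 43.6 CPM, also without overlap (log2 fold change -0.41 ± 0.08, adjusted p = 0.0485 in edgeR). ARF9 lost its call with another scaling of the libraries (RLE or upper quartile) and in limma-voom, where ARF1 lost it too. The other class B members, ARF2, ARF3, ARF4, ARF11 and ARF18, had log2 fold changes from -0.50 to 0.01. ARF11 was the lowest ARF, with 77 to 107 reads per library.

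In class C, ARF10 (AT2G28350, chr2:12113889-12116957, plus strand) and ARF16 (AT4G30080, chr4:14703065-14706354, minus strand), known together from root cap differentiation, rose. ARF10 had 108 and 86.3 CPM in the wild type and 182 and 156 CPM in the mutant. The mutant libraries were higher by 1.74 times on average, with a log2 fold change of 0.80 ± 0.14 (SE) and an adjusted p of 0.0413 in edgeR. ARF16 had 42.2 and 43.0 CPM against 64.2 and 69.7 CPM, higher by 1.57 times (log2 fold change 0.65 ± 0.08, adjusted p = 0.0229 in edgeR). ARF17 went the other way without passing, with 20.7 and 20.9 CPM against 14.4 and 16.3 CPM (log2 fold change -0.44 ± 0.11, adjusted p = 0.0686 in edgeR). The root cap marker SMB had 7.76 and 4.73 CPM in the wild type and 85.8 and 89.4 CPM in the mutant, and its part in the rise of ARF10 and ARF16 was not tested.

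The miR160 site is shown because all 3 class C genes carry it and they differed. A match with at most 4 unpaired positions was found in 3 of 27444 coding transcripts (0.0109%), and these were the 3 class C genes, in their coding spans. Mature miR160a, miR160b and miR160c are identical in the annotation; capitals mark the seed and the positions of each site that do not form a Watson-Crick pair, and all lines read 5′ to 3′.
ath-miR160a-5p: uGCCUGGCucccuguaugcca
ARF17 site, chr1:29274189-29274209, plus strand: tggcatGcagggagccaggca
ARF10 site, chr2:12115741-12115761, plus strand: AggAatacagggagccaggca
ARF16 site, chr4:14704141-14704161, minus strand: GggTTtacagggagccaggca
With G:U pairs (1 in ARF17, 1 in ARF16) counted as unpaired, ARF17 has 1 unpaired position, ARF10 has 2 and ARF16 has 3. All 3 sites pair fully with the seed. The MIR160A, MIR160B and MIR160C precursors stayed at or below 0.329 CPM in every library and were not tested. TAS3, whose small RNAs target ARF2, ARF3 and ARF4, was the 1 tested gene of 12 small RNA precursors, with 2.79 and 2.46 CPM in the wild type against 1.53 and 1.51 CPM in the mutant (log2 fold change -0.79, adjusted p = 0.128 in edgeR).

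The libraries of a genotype differed most for a few weakly expressed Aux/IAA genes. IAA7, known as AXR2, had 49 and 191 reads in the wild type against 47 and 287 in the mutant. IAA10 had 21 and 58 reads in the wild type against 50 and 116 in the mutant. In both genes replicate 2 of each genotype was the high one, by log2 differences of 1.65 and 2.38 for IAA7 and of 1.11 and 1.02 for IAA10. Outside the members, the root cap marker BRN1 did the same, with 7 and 215 reads in the wild type against 18 and 454 in the mutant. IAA5 had 11 and 42 reads in the wild type against 59 and 41 in the mutant, so replicate 2 was high in the wild type and low in the mutant. The labels do not say what the replicate numbers stand for. Of the 44 members with at least 10 reads in every library, 26 differed between replicates in the same direction in both genotypes. Across all 18716 tested genes the log2 CPM differences between replicates correlated between the genotypes, with a Pearson r of 0.555.

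**Figure D4:**
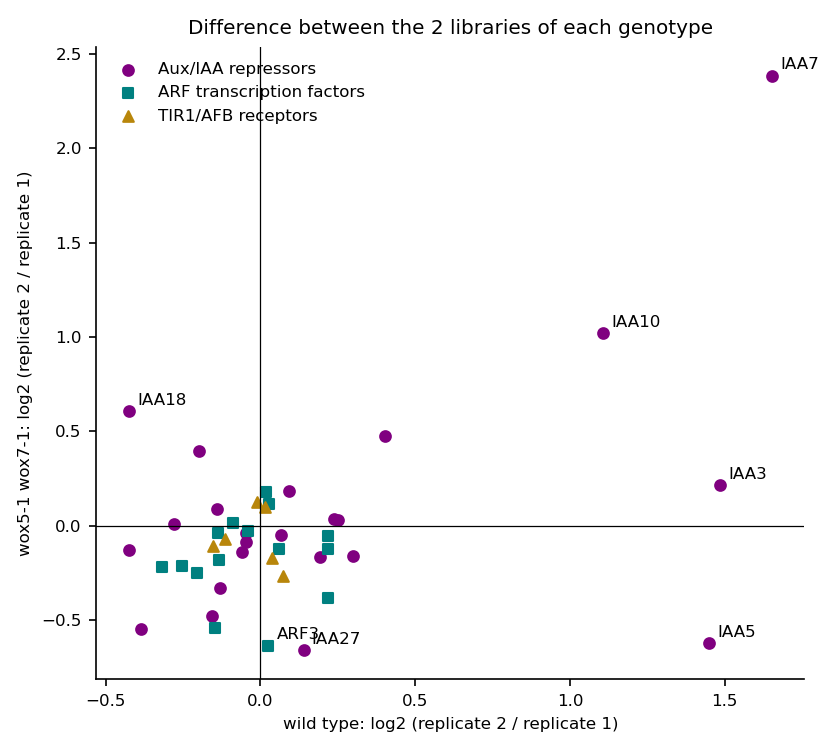
Log2 ratio of replicate 2 to replicate 1 (CPM with 0.1 added) in the mutant (vertical axis) against the same ratio in the wild type (horizontal axis) for the 44 members with at least 10 reads in every library. IAA7 and IAA10 lie at the upper right, high in replicate 2 of both genotypes, while the receptors and most ARF genes lie close to 0 on both axes.

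Among the partners of the 3 families 1 of 14 tested genes passed (7.14%), beside 11.9% of all tested genes. Of the 5 TOPLESS corepressor genes, TPR4 rose, with 110 and 116 CPM in the wild type and 157 and 168 CPM in the mutant (log2 fold change 0.52 ± 0.08, adjusted p = 0.0303 in edgeR). DESeq2 called 2 of the 5, TPR4 and TPR2, the second with a log2 fold change of -0.30 and an adjusted p of 0.0697 in edgeR. TPL itself, the most studied of them, had 438 and 436 CPM against 461 and 455 CPM, a log2 fold change of 0.07. Of 9 genes for the SCF ligase core and its regulators, 0 passed in edgeR (0 with an unadjusted p under 0.05) and 0 in DESeq2, and their log2 fold changes ran from -0.16 to 0.18. The smallest p was that of CUL1, the cullin scaffold, with 390.4 and 392 CPM against 441 and 442 CPM (log2 fold change 0.17 ± 0.07, adjusted p = 0.181 in edgeR).

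Of 17 genes known as outputs of ARF proteins, 16 were tested, 4 rose and 3 fell, 43.8% of those tested beside 11.9% of all tested genes. The list was drawn up with earlier results of these data known, and no test was made of this share. GH3.3, an enzyme that conjugates auxin to amino acids, had 537 and 531 CPM in the wild type and 2999 and 3315 CPM in the mutant (log2 fold change 2.56 ± 0.11, adjusted p = 0.00964 in edgeR). Both mutant libraries were far above the wild type, while its relatives GH3.1, GH3.2, GH3.5 and GH3.6 had log2 fold changes from 0.06 to 0.39 and did not pass in edgeR. DESeq2 called 11 of the 16 outputs, adding GH3.5, GH3.6, PID and TMO5, beside 20.2% of all genes with an adjusted p there. In limma-voom TMO6 lost its call. Of the LBD genes downstream of ARF7 and ARF19, LBD18 had 106 and 102 CPM against 165 and 166 CPM (log2 fold change 0.67 ± 0.07, adjusted p = 0.0195 in edgeR) and LBD33 had 1.61 and 1.16 against 13.4 and 19.2 CPM (log2 fold change 3.56 ± 0.29, adjusted p = 0.0158 in edgeR). LBD16, known from lateral root and callus formation, had 119 and 99.3 CPM against 139 and 99.3 CPM and did not pass (log2 fold change 0.13). LBD29 had 0.132 and 1.22 CPM against 0.170 and 3.33 CPM, high in replicate 2 of both genotypes. It overlapped between the genotypes and did not pass (log2 fold change 1.36 ± 1.55, adjusted p = 0.589 in edgeR).

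The genes known downstream of ARF5 went both ways. ATHB8, a vascular homeobox gene, had 55.5 and 57.1 CPM in the wild type and 148 and 110 CPM in the mutant (log2 fold change 1.19 ± 0.16, adjusted p = 0.0262 in edgeR). TMO7, a mobile transcription regulator, had 43.2 and 45.4 CPM against 18.1 and 25.3 CPM (log2 fold change -1.03 ± 0.18, adjusted p = 0.0394 in edgeR). CRF2 had 173 and 147 CPM against 95.3 and 83.1 CPM (log2 fold change -0.84 ± 0.12, adjusted p = 0.0289 in edgeR), and TMO6 had 122 and 129 CPM against 98.5 and 93.7 CPM (log2 fold change -0.38 ± 0.07, adjusted p = 0.0448 in edgeR). TMO5, a regulator of vascular cell divisions, had 41.4 and 59.2 CPM against 91.4 and 70.3 CPM, higher in both mutant libraries, and did not pass (log2 fold change 0.68 ± 0.22, adjusted p = 0.114 in edgeR). None of these 5 genes overlapped between the genotypes, where 12062 of all 18716 tested genes did not either, and ARF5 did.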

How the data were processed

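The authors deposited 1 table of raw gene-level counts, 32833 genes by 4 libraries, 2 of the wild type and 2 of the wox5-1 wox7-1 mutant. STAR 2.7.2b, Trim Galore 0.5.0 and DESeq2, and the build TAIR10, are listed in the submitters' processing notes; no source used here gives the counting tool or the strand setting. No value in the deposited table is below 10, and 10 was subtracted from each. This is read from the values: for weakly expressed genes the ratio of the variance within a genotype to that of a Poisson count was 0.520 and 0.539 as deposited and 2.25 and 2.39 after subtraction. Of the genes, 9342 then had no read.

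All libraries were fitted together in R 4.3.3 with edgeR 4.0.16 (filterByExpr, 18716 genes tested; TMM; glmQLFit and glmQLFTest, two-sided, no covariates; Benjamini-Hochberg over all tested genes, threshold 0.05), after the steps were tested on simulated data. The biological coefficient of variation was 0.217. CPM are TMM-scaled, and the SE is the absolute log2 fold change over the square root of F. At these depths 3 reads are 0.0770 to 0.0987 CPM. Levels per kb use the longest TAIR10.1 RefSeq transcript. The annotation matched 32548 identifiers, 46 of them members, and gave all sequences. Alternatives were scaling by RLE or by the upper quartile, leaving out the filter or using a stricter one (CPM of at least 1 in 2 libraries), DESeq2 1.42.0, limma-voom (limma 3.58.1), the values as deposited, a replicate block and each library left out.

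Members and gene lists were chosen with earlier results of these data known. Named with values are all members past the threshold, the 3 highest per kb in each family, the 3 smallest p in a family with under 3 calls, and in the pathway lists every called gene or otherwise the smallest p. Other genes were named after their values were seen.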

Additional observations from a re-analysis of the deposited data

How the results depend on the processing

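With a library left out, the lone library of its genotype is assumed to vary like the other genotype; members called higher then numbered 0 to 5 for Aux/IAA and 0 to 1 for ARF, members called lower 0 to 2, 0 to 1 and 0 to 1 for Aux/IAA, ARF and TIR1/AFB, and all genes called 0 to 1452 higher and 0 to 1041 lower. The family medians ran from 0.37 to 0.43, -0.23 to -0.0395 and -0.20 to -0.14 (log2) in these runs. DESeq2 called 2170 genes higher and 1748 lower, 13 Aux/IAA members higher and 2 receptors lower, and the values as deposited gave 2609 genes higher and 10 Aux/IAA members higher. In limma-voom 1 Aux/IAA and 0 ARF members were lower; with RLE or upper-quartile scaling 1 ARF member was lower. The Aux/IAA median was 0.44 with RLE, 0.41 with upper quartile, 0.38 with the stricter filter and 0.51 as deposited, where the receptor median was -0.0638. These causes were not tested, except that the stricter filter drops IAA31.

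The replicate numbers share only a number, since the labels do not say what they pair. Differences between replicates correlated between genotypes at 0.555 across 18716 genes. With a replicate block 2527 genes were higher and 2223 lower, and 26 members passed, with all 14 kept: 13 Aux/IAA higher, 4 ARF lower and 2 receptors lower. The 12 added were IAA3, IAA4, IAA9, IAA11, IAA13, IAA16, IAA26, IAA27, IAA28, ARF8, ARF17 and TIR1.

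The members that changed sign had not passed. With a library left out, the log2 fold change of IAA7 ran from -1.37 (without mutant replicate 2; -0.27 without wild type replicate 1) to 1.43, that of ARF2 from -0.0361 (without wild type replicate 2) to 0.063, that of ARF3 from -0.575 to 0.0693 (without mutant replicate 2), and that of ARF5 from -0.11 (without mutant replicate 1) to 0.44. ARF6 ran from -0.10 (without wild type replicate 2; -0.08 without mutant replicate 1) to 0.17, AFB3 from -0.07 (without mutant replicate 1) to 0.20, and AFB4 from -0.17 to 0.0104 (without mutant replicate 2). The upper quartile gave -0.0092 for ARF2, and the values as deposited gave 0.0434 for IAA8, 0.0259 for ARF7 and 0.0008 for AFB4. Depth limits IAA31, IAA6 and the precursors of small RNAs.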

Other observations

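The 12 genes of the same families outside the 46 members were mostly silent. ARF12, ARF15, ARF20, ARF21, ARF22 and ARF23 had 0 reads in every library, and 3 of the 12, IAA15, IAA32 and IAA33, had enough reads to test. IAA33, an Aux/IAA gene without the canonical degron core that is known from root stem cell maintenance, had 11 and 13 reads in the wild type and 102 and 213 reads in the mutant. Both mutant libraries were far above the wild type, with a log2 fold change of 3.52 ± 0.46 (SE) and an adjusted p of 0.0250 in edgeR, at a level of 2.89 and 5.46 CPM in the mutant. IAA15 overlapped between the genotypes with 13 to 46 reads per library, and IAA32 had 3 and 7 reads against 14 and 12 and did not pass (adjusted p = 0.240 in edgeR).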
